A study of Mus musculus with 24 samples.

Results

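Cell cycle and DNA replication genes were followed in the cerebral cortex of Fmr1 KO and WT mice, in RNA on polyribosomes and in total RNA. The group holds 44 named genes, and its members were the probe sets of an Affymetrix mouse genome array whose single annotated gene symbol is one of those names. A probe set was found for 43 of the 44 genes (105 probe sets of 45037, and 43 of 18193 genes with a symbol of their own). Ccnb1 had none and was not measured here. Each gene is given at the probe set with the highest mean over the 24 arrays.

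A dividing cell passes from G1 into S phase, when D-type cyclins with Cdk4 and Cdk6 lift the block that retinoblastoma proteins place on E2F transcription factors. The MCM helicase then opens the DNA at origins, Pcna clamps the polymerases to it, and ribonucleotide reductase supplies the nucleotides. Cdk1 with cyclins A and B drives mitosis, in which the chromosomal passenger complex and the spindle checkpoint control how chromosomes attach and separate. In rodent cortex at the end of the first postnatal week most neurons have left the cycle, while glial progenitors still divide.

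The mice were males on the FVB background at postnatal day 7, and both genotypes were littermates. The 4 groups, of 6 arrays each, were Fmr1 KO polyribosomal RNA, Fmr1 KO total RNA, WT polyribosomal RNA and WT total RNA. Fmr1 encodes FMRP, an RNA-binding protein that associates with polyribosomes and is lost in fragile X syndrome. Each replicate was a pool of the cortices of 2 mice, freed of white matter and kept in cycloheximide, which holds ribosomes on the mRNA. Of the cleared lysate 20% gave the total RNA, and the rest went through a 20% to 50% sucrose gradient. Gradient fractions 10 to 13 of 16, which hold mRNAs with 6 or more ribosomes, gave the polyribosomal RNA. An mRNA with fewer ribosomes is not counted as polyribosomal here, so a lower value does not mean absence from ribosomes. A polyribosomal value thus depends on both how much of an mRNA there is and how much of it lies in these fractions, and 10 µg of RNA was labelled from either source. In cortex tissue, fewer cells of a type and less RNA per cell cannot be told apart.

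Values are log2 GCRMA signals, and a difference of 1 is a 2-fold change. The array medians lay between 3.17 and 3.2, and 38.8% to 40% of probe sets reached 4, the level used here as the lower limit of measurement. Fmr1 averaged 6.19 ± 0.48 in KO polyribosomal RNA and 9.90 ± 0.21 in WT polyribosomal RNA, and 6.38 ± 0.16 in KO total RNA and 9.66 ± 0.18 in WT total RNA (SD, n = 6 each), so every array fitted its genotype label. Neuron markers (10 of 10 at or above 4 in every group) and astrocyte markers (8 of 8) were present, as were 8 of 13 radial glia and progenitor markers, while Pax6, Eomes, Nes, Hes1 and Prom1 averaged under 4. Both blood markers measured, Hba-a1 and Alas2, averaged under 4. The polyribosomal arrays of KO lysate 5 and WT lysate 4 had the lowest mean correlation with the other arrays of their groups (0.9934 and 0.9932, against 0.9944 to 0.9974 for the others), and the differences of replication and nucleotide supply genes are given with and without them.

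Most measured cell cycle mRNAs were over-represented on polyribosomes. In KO cortex 25 of the 30 members tested were higher in polyribosomal than in total RNA, 3 were lower and 2 were not called (limma with the lysate as a block, Benjamini-Hochberg adjusted p under 0.05 over all probe sets). Over all 9700 genes tested in KO cortex, 38.7% were called higher and 28.2% lower. In WT cortex the members again split into 25 higher, 3 lower and 2 not called, where 37.5% of 9725 genes were higher and 28.4% lower. The median difference of the members was 0.74 in KO and 0.69 in WT cortex, beside 0.09 in each genotype over all genes. Of the 30 members, 24 were higher in both genotypes, beside 33.9% of the 9647 genes tested in both. Cks1b, Cks2 and E2f1 were lower in both, beside 25.8% of those genes. The members were chosen with earlier results of these data known, so these contrasts with all genes are descriptive and not an independent test.

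A gene passes the filter when 6 of the 12 arrays reach 4, so a member can enter through its polyribosomal arrays alone. With 4 required in all 12 arrays, a check added after seeing the data, 27 members were left, and 22 of them were higher and 3 lower in each genotype. The genes then left were higher in 39.6% and lower in 27.5% in KO cortex, and higher in 38.2% and lower in 27.4% in WT cortex. All 6 polyribosomal arrays lay above all 6 total arrays for 17 of 30 members in KO cortex, where 24.1% of genes did so, and for 20 of 30 in WT cortex, where 21.8% did. They lay below them for 3 members in KO cortex, where 18.1% of genes did so, and for 2 in WT cortex, where 18.3% did.

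Markers of other cells were also called in both directions between the RNA kinds. Over all genes, 38.7% were higher and 28.2% lower in KO cortex, and 37.5% and 28.4% in WT cortex. Of 8 astrocyte markers, 3 were higher and 1 lower in KO cortex, and 3 higher and 2 lower in WT cortex. Of 10 neuron markers, 1 was higher and 4 lower in KO cortex, and 2 higher and 4 lower in WT cortex. The summed level of 9 oligodendrocyte lineage markers ran from 11.82 to 12.61 in KO polyribosomal RNA and from 11.24 to 12.02 in KO total RNA, and from 11.89 to 12.74 in WT polyribosomal RNA and from 11.43 to 12.01 in WT total RNA. Of these, 7 or 8 averaged at least 4 in each group, and Mog was under it in all. Of 7 tested in each genotype, Olig2, Cnp and Mbp were higher, 3 were not called, and the progenitor marker Pdgfra was lower (-0.28 in KO and -0.32 in WT cortex). The sum of 8 endothelium and pericyte markers ran from 8.43 to 9.14 in KO polyribosomal RNA and from 7.95 to 8.34 in KO total RNA. In WT cortex it ran from 8.29 to 9.04 in polyribosomal RNA and from 7.91 to 8.23 in total RNA. Only 2 or 3 of the 8 averaged at least 4, with Pecam1, Kdr, Flt1, Tek and Kcnj8 under it in every group. The sum of 7 microglia markers ran from 7.32 to 7.59 in KO polyribosomal RNA and from 7.65 to 8.14 in KO total RNA. In WT cortex it ran from 7.37 to 7.735 in polyribosomal RNA and from 7.904 to 8.303 in total RNA. In each group 2 or 3 of the 7 averaged at least 4. Only 2 microglia markers were tested in each genotype. Of these 1 was called, Aif1 at -1.07 in KO and -1.32 in WT cortex, while the other lay above 0 in both. The part of these markers in the result was not tested.

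**Figure D1:**
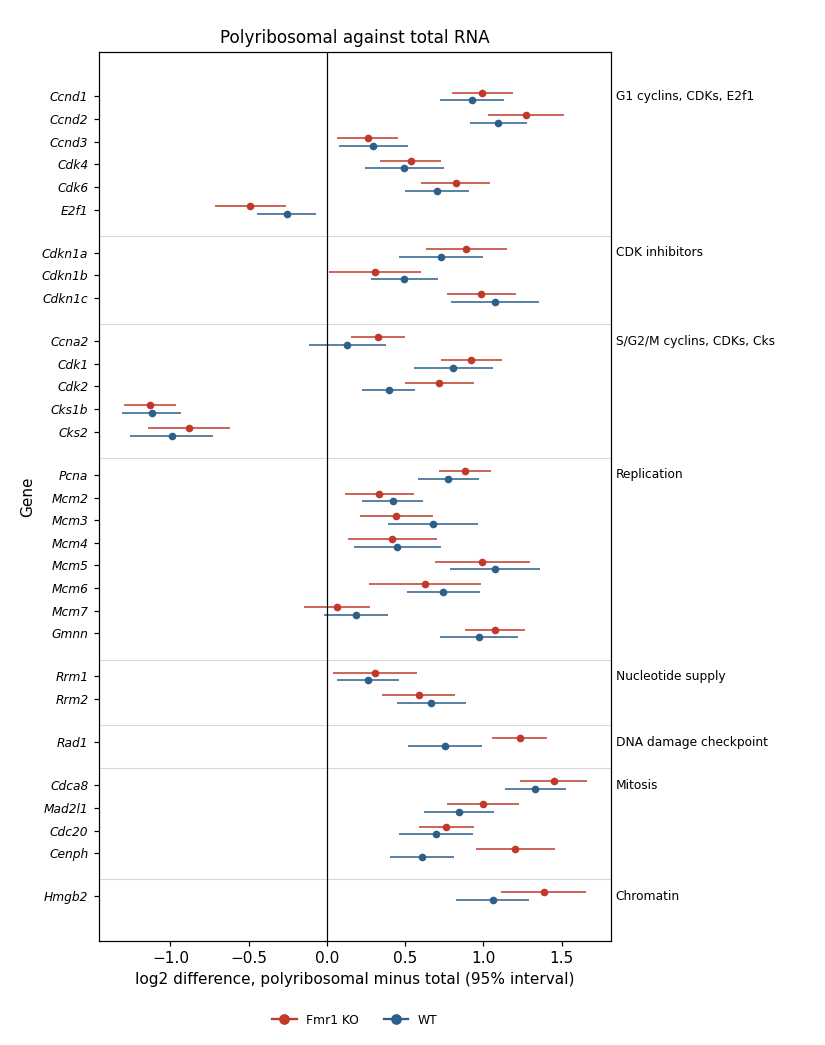
Difference between polyribosomal and total RNA (x axis, log2, with the 95% interval of the limma fit) for the 30 members tested, by role, in Fmr1 KO (red) and WT (blue) cortex with 6 lysates each. Cks1b, Cks2 and E2f1 lie left of 0, Cdca8, Hmgb2 and Ccnd2 lie furthest right in KO cortex and Cdca8 and Ccnd2 in WT cortex, and the total RNA means of Cdk1 and Cenph are under the limit of 4.

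Among the G1 genes, the cyclins and their kinases were higher on polyribosomes and the transcription factor E2f1 was lower. Ccnd2, a D-type cyclin prominent in neural progenitors, ran from 9.54 to 10.14 with a median of 9.89 in KO polyribosomal RNA, and from 8.45 to 8.78 with a median of 8.60 in KO total RNA. Its WT values ran from 9.68 to 9.94 (median 9.86) in polyribosomal RNA and from 8.61 to 8.97 (median 8.73) in total RNA. The groups did not overlap in either genotype, and the difference was 1.27 ± 0.11 in KO (adjusted p = 2.05e-06) and 1.10 ± 0.08 in WT cortex (SE of the limma fit, adjusted p = 9.03e-07). All 7 Ccnd2 probe sets were higher, by 0.78 to 1.67 in KO and by 0.56 to 1.55 in WT cortex.

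Ccnd1, the D-type cyclin that links growth signals to G1, ran from 9.43 to 9.75 (median 9.63) in KO polyribosomal RNA and from 8.36 to 8.77 (median 8.65) in KO total RNA. In WT cortex it ran from 9.39 to 9.93 (median 9.48) in polyribosomal RNA and from 8.53 to 8.77 (median 8.63) in total RNA. Again no polyribosomal array fell to the level of a total array, with differences of 0.99 ± 0.09 in KO and 0.93 ± 0.09 in WT cortex. The third D-type cyclin, Ccnd3, differed less, by 0.26 ± 0.09 in KO (adjusted p = 0.0224) and 0.30 ± 0.10 in WT cortex (adjusted p = 0.0213), its arrays overlapped, and it lost its call when single lysates were left out. Of the kinases that D-type cyclins activate, Cdk4 was higher by 0.54 in KO and 0.49 in WT cortex and Cdk6 by 0.82 in KO and 0.70 in WT cortex. A second Cdk6 probe set was not called, at 0.21 in KO (adjusted p = 0.111) and 0.16 in WT cortex (adjusted p = 0.306), so the size of the Cdk6 difference depends on the probe set.

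E2f1, which activates the genes of S phase entry, averaged 4.77 ± 0.16 in KO polyribosomal RNA and 5.26 ± 0.17 in KO total RNA, a difference of -0.49 ± 0.10 (SE) with an adjusted p of 0.00135. In WT cortex it averaged 4.82 ± 0.13 in polyribosomal RNA and 5.07 ± 0.15 in total RNA, a difference of -0.26 ± 0.09 (SE) with an adjusted p of 0.0207. It was lower in 6 of 6 lysates of each genotype, but its arrays overlapped in WT cortex. The WT call was lost without lysate 2 (adjusted p = 0.0801).

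The 3 inhibitors of cyclin-dependent kinases leaned the same way. Cdkn1c, which holds progenitors out of the cycle, ran from 6.03 to 7.44 (median 6.79) in KO polyribosomal RNA and from 5.20 to 6.02 (median 5.84) in KO total RNA. Its WT values ran from 6.32 to 7.36 (median 6.75) in polyribosomal RNA and from 5.16 to 6.12 (median 5.90) in total RNA. The polyribosomal arrays all lay above the total arrays, though the spread within a group was wide, and the differences were 0.99 ± 0.10 in KO and 1.08 ± 0.13 in WT cortex. Cdkn1a, a target of p53, was higher by 0.89 in KO and 0.73 in WT cortex without overlap. Cdkn1b was called in WT cortex, at 0.50 (adjusted p = 0.000891), and not in KO cortex, at 0.31 (adjusted p = 0.0625). The test of that genotype gap was not called, with a difference of -0.19 (adjusted p = 0.999).

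The genes of S phase, G2 and mitotic entry held the members furthest below 0. Cks1b encodes a small protein that binds cyclin-dependent kinases and helps the Skp2 ubiquitin ligase recognise Cdkn1b. It ran from 8.78 to 9.36 (median 9.06) in KO polyribosomal RNA and from 9.89 to 10.59 (median 10.14) in KO total RNA. In WT cortex it ran from 8.85 to 9.53 (median 9.02) in polyribosomal RNA and from 9.93 to 10.45 (median 10.16) in total RNA. Every polyribosomal array lay below every total array, with a 2.19-fold lower value in KO (log2 difference -1.13 ± 0.07, adjusted p = 2.82e-07) and a 2.18-fold lower value in WT cortex (-1.12 ± 0.09, adjusted p = 8.75e-07).

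Its paralogue Cks2 ran from 5.32 to 6.23 (median 5.99) in KO polyribosomal RNA and from 6.63 to 7.13 (median 6.68) in KO total RNA. In WT cortex Cks2 ran from 5.34 to 6.03 (median 5.85) in polyribosomal RNA and from 6.54 to 7.05 (median 6.71) in total RNA. These groups did not overlap either, and the differences were -0.88 ± 0.12 in KO and -0.99 ± 0.12 in WT cortex. A second Cks2 probe set was lower too, at -0.94 in KO and -0.88 in WT cortex. A second Cks1b probe set was called lower in both genotypes, but it passed the filter through total RNA and averaged 3.84 in KO and 3.80 in WT polyribosomal RNA, under the limit, so its size is not given. In contrast Cdk2, the kinase of S phase, was higher by 0.72 in KO and 0.39 in WT cortex. Its total RNA means of 4.02 in KO and 4.11 in WT cortex lie at the limit of 4. Only 3 of 6 KO and 5 of 6 WT total arrays reached it, so these sizes are uncertain. Cdk1, the kinase of mitosis, was called higher in both genotypes, but it averaged 3.64 in KO total RNA and 3.72 in WT total RNA, under the limit, so no fold is given. Ccna2, the cyclin of S phase and G2, was higher in KO cortex by 0.33 (adjusted p = 0.00309) and was not called in WT cortex, at 0.13 (adjusted p = 0.317). Its genotype gap of 0.20 was not called (adjusted p = 0.999), and a second Ccna2 probe set was higher in both, by 0.44 in KO and 0.33 in WT cortex.

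Transcription of many late cell cycle genes runs through 2 promoter elements, the CCAAT box (CCAAT) and the cell cycle homology region (CHR, TTTGAA), and S phase genes often carry an E2F element (searched as TTTCGCGC or TTTGGCGC). Promoters of 250 bases before and 50 after the start were available from RefSeq (GRCm38.p6) for 37 of the 44 genes, 41 promoters in all. On either strand, CCAAT was in 68.3% of these and in 37.4% of all 32851 promoters. TTTGAA was in 31.7% of the members' promoters and 17.9% of all, and the E2F element in 12.2% (5 promoters) of the members' and 0.813% of all. The Cks1b promoter (chr3:89418242-89418541, minus strand) is shown because it holds the same late elements as that of Cdca8, whose mRNA differed in the opposite direction. Capitals mark CCAAT and TTTGAA or their reverse complements: 4 CCAAT boxes from base -217 to -41 of the start and 2 CHR, at -77 and -17.
Cks1b: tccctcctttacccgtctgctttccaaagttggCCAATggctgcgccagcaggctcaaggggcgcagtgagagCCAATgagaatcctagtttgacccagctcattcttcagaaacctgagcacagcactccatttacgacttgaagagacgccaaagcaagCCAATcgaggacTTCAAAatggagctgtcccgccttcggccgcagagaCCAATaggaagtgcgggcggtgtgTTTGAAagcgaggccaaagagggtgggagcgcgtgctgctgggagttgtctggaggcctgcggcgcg

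**Figure D2:**
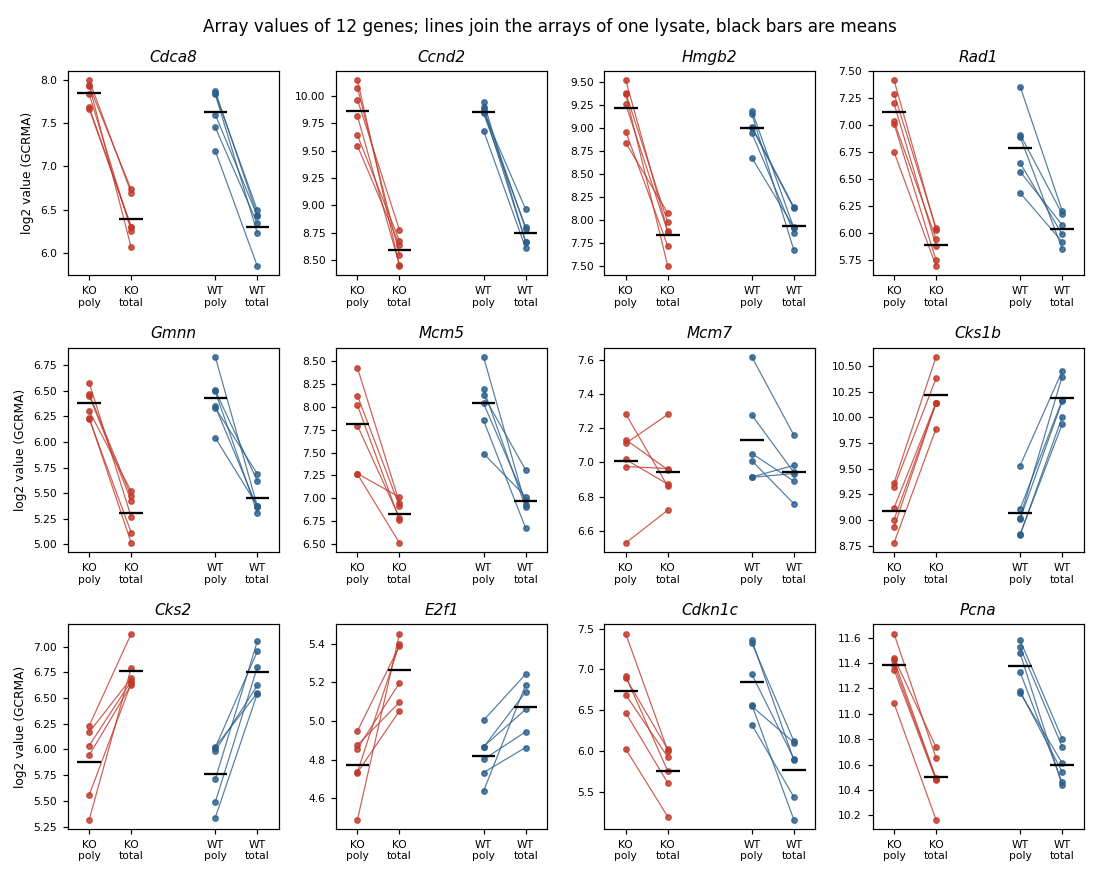
Array values (y axis, log2 GCRMA signal, each panel on its own scale) of 12 members in Fmr1 KO (red) and WT (blue) cortex, polyribosomal left of total. Lines join the polyribosomal and total arrays of one lysate and black bars are group means of 6 arrays. For Cks1b, Cks2 and E2f1 every line runs up to total RNA, and for Mcm7 the lines cross.

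All 8 replication genes were measured, and 7 of them were higher on polyribosomes in each genotype. Pcna, the sliding clamp, averaged 11.38 ± 0.18 in KO polyribosomal RNA and 10.50 ± 0.20 in KO total RNA, and 11.37 ± 0.18 in WT polyribosomal RNA and 10.60 ± 0.15 in WT total RNA (SD, n = 6 each). Its arrays did not overlap in either genotype. Gmnn, which encodes geminin and keeps origins from being licensed again within one cycle, ran from 6.23 to 6.58 (median 6.38) in KO polyribosomal RNA and from 5.01 to 5.52 (median 5.35) in KO total RNA. In WT cortex it ran from 6.04 to 6.83 (median 6.42) in polyribosomal RNA and from 5.31 to 5.69 (median 5.38) in total RNA. The arrays of Gmnn were again apart, with differences of 1.08 ± 0.09 in KO and 0.97 ± 0.11 in WT cortex.

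The 6 subunits of the MCM helicase work as one ring, and at the probe sets used their differences varied in size. The order depends on the probe set and the setting. Mcm5 ran from 7.26 to 8.43 (median 7.91) in KO polyribosomal RNA and from 6.51 to 7.01 (median 6.85) in KO total RNA. In WT cortex it ran from 7.49 to 8.55 (median 8.08) in polyribosomal RNA and from 6.67 to 7.31 (median 6.95) in total RNA. Its groups did not overlap, and it was higher by 0.99 ± 0.14 in KO (adjusted p = 6.63e-05) and 1.07 ± 0.13 in WT cortex (adjusted p = 3.04e-05). Mcm6 followed at 0.63 in KO and 0.75 in WT cortex, and Mcm3 at 0.44 in KO and 0.68 in WT cortex. Mcm4 gave 0.42 in KO and 0.45 in WT cortex and Mcm2 gave 0.34 in KO and 0.42 in WT cortex, so that 5 of the 6 subunits were called in each genotype. Over the alternatives run, Mcm5 ranged from 0.53 to 1.14 in KO and from 0.51 to 1.20 in WT cortex. The other Mcm5 probe sets averaged under 4 in every group, so none of them bears on its size. Those of Mcm3 averaged under 4 too, except for 1 at 4.10 in WT polyribosomal RNA. A second Mcm4 probe set gave 0.26 in each genotype. The total RNA means of Mcm2 (4.49 in KO and 4.53 in WT cortex) and Mcm3 (4.33 and 4.37) lay little above the limit of 4. Mcm7 was not called: it ran from 6.53 to 7.28 in KO polyribosomal RNA and from 6.72 to 7.28 in KO total RNA, a difference of 0.07 with a 95% interval of -0.14 to 0.27. In WT cortex the Mcm7 difference was 0.19 with an interval of -0.02 to 0.39. Its probe sets disagreed, since the 3 others ranged from -0.05 to 0.29 in KO cortex, and one of them was called higher in both genotypes (0.29 in KO, adjusted p = 0.0358, and 0.31 in WT cortex, adjusted p = 0.012).

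Most MCM genes and both ribonucleotide reductase genes had low values in the same lysates. In KO lysate 5 the 6 differences had a median of -0.11 and ran from -0.33 to 0.26, whereas the medians of the other KO lysates lay between 0.31 and 0.93. In WT lysate 4 the median was 0.14, against 0.41 to 0.98 in the other WT lysates. Mcm7 was an exception in KO cortex, with -0.19 in lysate 3 and -0.17 in lysate 5. Rrm1 (-0.26 in KO lysate 5 and -0.09 in WT lysate 4) and Rrm2 (0.09 in KO lysate 5 and 0.23 in WT lysate 4) also had their lowest values there. So did Pcna, at 0.70 in KO lysate 5 and 0.55 in WT lysate 4, though it stayed well above 0. These are the lysates whose polyribosomal arrays correlated least with their groups; their part in the result was not tested. Without KO lysate 5, Mcm5 was higher by 1.14, Mcm6 by 0.82, Mcm4 by 0.57, Mcm3 by 0.49 and Mcm2 by 0.41 in KO cortex, and Mcm7 was not called (0.11, adjusted p = 0.33). In the same fit Pcna was higher by 0.92, Gmnn by 1.05, Rrm1 by 0.42 and Rrm2 by 0.69. Without WT lysate 4, Mcm7 passed the threshold in WT cortex (0.24, adjusted p = 0.0378). The other subunits were called there at 1.20 for Mcm5, 0.82 for Mcm6, 0.80 for Mcm3, 0.57 for Mcm4 and 0.46 for Mcm2, as were Pcna (0.82), Gmnn (0.87), Rrm1 (0.34) and Rrm2 (0.76).

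**Figure D3:**
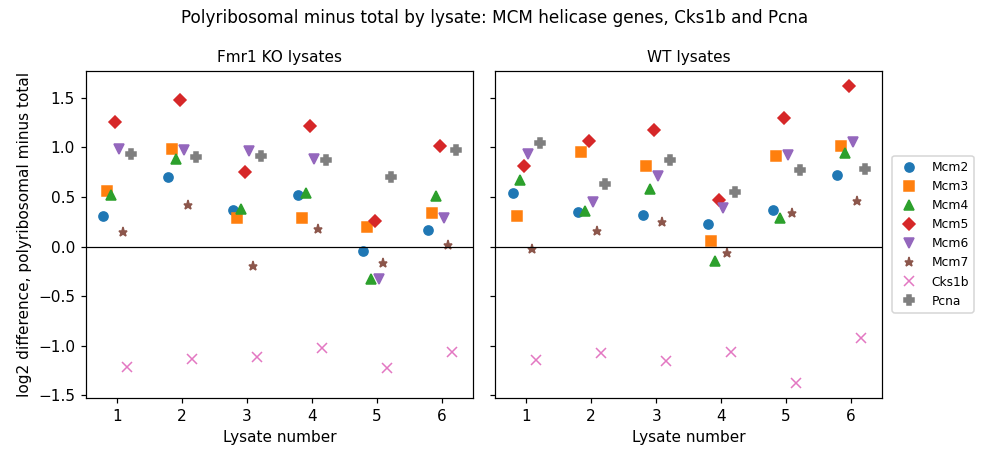
Polyribosomal minus total difference (y axis, log2) in each of the 6 lysates (x axis) of Fmr1 KO (left) and WT (right) cortex for Mcm2 to Mcm7, Cks1b and Pcna. Most MCM points are low in KO lysate 5 and WT lysate 4. Pcna lies between 0.55 and 1.04 over all lysates, and its lowest points are in the same lysates (0.70 in KO lysate 5 and 0.55 in WT lysate 4). Cks1b lies between -1.38 and -0.92 over all lysates.

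The promoters of Mcm5 (chr8:75109259-75109558, plus strand) and Mcm7 (chr5:138171834-138172133, minus strand) are shown because both hold the E2F element while, at the probe sets used, the Mcm5 mRNA was called and the Mcm7 mRNA was not. Capitals mark E2F elements and CCAAT or its reverse complement. In Mcm5 the element occurs on both strands with overlapping letters (from -153 and -149), and in Mcm7 it overlaps a CCAAT box (from 17 and 24). The other E2F elements were in the promoters of Mcm3, Mcm6 and Cdk1, and a promoter bears on transcription, so nothing about ribosomes is read from it.
Mcm5: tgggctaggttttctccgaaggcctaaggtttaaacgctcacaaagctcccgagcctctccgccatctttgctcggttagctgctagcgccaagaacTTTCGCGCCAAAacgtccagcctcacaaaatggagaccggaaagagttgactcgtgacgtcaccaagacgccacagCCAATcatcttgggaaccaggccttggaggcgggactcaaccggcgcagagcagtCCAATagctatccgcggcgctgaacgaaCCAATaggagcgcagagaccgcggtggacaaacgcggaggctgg
Mcm7: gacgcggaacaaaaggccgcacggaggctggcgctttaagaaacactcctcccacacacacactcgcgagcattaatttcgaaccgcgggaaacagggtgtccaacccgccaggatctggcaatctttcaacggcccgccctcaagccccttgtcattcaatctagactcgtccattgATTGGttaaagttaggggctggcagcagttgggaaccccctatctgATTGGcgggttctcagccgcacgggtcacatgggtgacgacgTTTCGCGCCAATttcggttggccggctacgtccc

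Of the genes that supply nucleotides, Rrm2, the regulated subunit of ribonucleotide reductase, was higher by 0.59 ± 0.11 in KO (adjusted p = 0.000504) and 0.67 ± 0.10 in WT cortex (adjusted p = 0.000149). The large subunit, Rrm1, passed narrowly, at 0.31 in KO (adjusted p = 0.0417) and 0.27 in WT cortex (adjusted p = 0.0227). It lost its call when any of lysates 1 to 4 was left out in KO cortex (adjusted p 0.101 to 0.118) and when lysate 1, 2, 3 or 6 was left out in WT cortex (0.0655 to 0.0681). A second Rrm1 probe set was not called in either genotype (0.04 in KO and 0.12 in WT cortex). Rad1, part of the ring-shaped clamp that marks DNA damage for the checkpoint, ran from 6.75 to 7.42 (median 7.12) in KO polyribosomal RNA and from 5.69 to 6.04 (median 5.91) in KO total RNA. In WT cortex Rad1 ran from 6.37 to 7.36 (median 6.77) in polyribosomal RNA and from 5.85 to 6.20 (median 6.03) in total RNA. No arrays of Rad1 overlapped, and the differences were 1.23 ± 0.08 in KO and 0.76 ± 0.11 in WT cortex.

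Of the mitosis genes, the 3 whose means reached 4 in both kinds of RNA, Cdca8, Mad2l1 and Cdc20, were higher on polyribosomes. Cdca8 encodes borealin, a subunit of the chromosomal passenger complex, and had the highest difference of all members at the probe sets used. It ran from 7.66 to 8.0 (median 7.88) in KO polyribosomal RNA and from 6.06 to 6.73 (median 6.30) in KO total RNA. In WT cortex it ran from 7.18 to 7.87 (median 7.71) in polyribosomal RNA and from 5.85 to 6.49 (median 6.38) in total RNA. The groups lay far apart, at a 2.73-fold higher value in KO (adjusted p = 3.14e-07) and a 2.52-fold higher value in WT cortex (adjusted p = 3.53e-07), and its 2 other probe sets were also higher, by 0.60 and 1.53 in KO and by 0.47 and 1.18 in WT cortex. The Cdca8 promoter (chr4:124936868-124937167, minus strand), set against that of Cks1b above, holds 4 reversed CCAAT boxes and 1 CHR, which overlaps one of them (from 14 and 19).
Cdca8: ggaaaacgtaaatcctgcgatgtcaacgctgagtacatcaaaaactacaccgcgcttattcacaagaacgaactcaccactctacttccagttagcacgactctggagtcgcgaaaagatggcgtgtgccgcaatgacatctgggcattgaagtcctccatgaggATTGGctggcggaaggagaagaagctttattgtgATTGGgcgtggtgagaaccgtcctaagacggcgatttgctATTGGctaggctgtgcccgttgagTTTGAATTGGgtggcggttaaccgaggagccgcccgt

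The spindle checkpoint gene Mad2l1 was higher by 1.00 ± 0.11 in KO and 0.84 ± 0.10 in WT cortex. Cdc20, the activator of the anaphase-promoting complex that Mad2l1 holds back, was higher by 0.76 ± 0.08 in KO and 0.70 ± 0.11 in WT cortex. Cenph, a kinetochore subunit, was called in both genotypes and passed the filter through its polyribosomal arrays, but its total RNA means of 3.58 in KO and 3.86 in WT cortex are under the limit, so no fold is given. Hmgb2, a chromatin protein of dividing progenitors, ran from 8.84 to 9.53 (median 9.32) in KO polyribosomal RNA and from 7.5 to 8.08 (median 7.88) in KO total RNA. In WT cortex Hmgb2 ran from 8.68 to 9.19 (median 9.01) in polyribosomal RNA and from 7.68 to 8.15 (median 7.92) in total RNA. Its arrays did not overlap, with differences of 1.39 ± 0.12 in KO and 1.06 ± 0.11 in WT cortex, and a second probe set gave 1.95 in KO and 1.63 in WT cortex.

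The other 13 genes with a probe set were too dim to be tested against total RNA: Ccnb2, Cdca3, Tyms, Chek1, Aurka, Aurkb, Birc5, Plk1, Bub1, Bub1b, Mki67, Top2a and Cdca7. They include 6 of the 10 mitosis genes and the standard proliferation markers Mki67 and Top2a. Mki67 averaged 1.91 in KO polyribosomal RNA and 2.97 in KO total RNA, and 1.92 in WT polyribosomal RNA and 3.09 in WT total RNA, all under the limit. In a fit without the filter, Mki67 and Birc5 were lower in both genotypes, and Ccnb2, Aurka, Aurkb and Cdca7 were higher in both. Bub1 was called lower in KO cortex and Bub1b higher in WT cortex, without a call in the other genotype, and the test of the genotype gap without the filter called 0 of 43 members. At these levels the values carry no fold, and the counts over measured members do not speak for the whole list.

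The comparison of genotypes asks whether losing FMRP changed the level of these mRNAs. In polyribosomal RNA 0 of 31 members were called between KO and WT cortex by limma, where 0.0103% of 9664 genes were called (1 gene, Fmr1 itself). An unadjusted p under 0.05 was found for 215 of the 9664 genes and for 2 members, Cenph at 0.33 (adjusted p = 1) and Cdk2 at 0.24 (adjusted p = 1), each higher in 5 of 6 number-matched arrays, and the third smallest p was that of Rad1 at 0.33 (adjusted p = 1). In total RNA 0 of 28 members were called, where 0.0413% of 9690 genes were. An unadjusted p under 0.05 was found for 489 of the 9690 genes and for 4 members: Ccnd3 at 0.22, E2f1 at 0.19, Ccna2 at -0.23 and Rrm1 at -0.20, each with an adjusted p of 0.982 and overlapping arrays. No member was called with the replicate number as a block either.

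The intervals bound what these arrays could show. Cks1b averaged 9.08 ± 0.23 in KO polyribosomal RNA and 9.06 ± 0.25 in WT polyribosomal RNA, a difference of 0.02 (SD, n = 6 each). For Pcna the 95% interval of the KO minus WT difference was -0.23 to 0.25 in polyribosomal and -0.30 to 0.11 in total RNA. Of the 8 replication members, 7 lay below 0 in polyribosomal RNA (median -0.12) and 8 in total RNA (median -0.07), but none was called. Over all genes the medians were 0.01 and -0.01. Replication genes outside the group did not share this lean. In polyribosomal RNA 20 of them lay above 0 and 8 below (median 0.06), and in total RNA 14 above and 13 below. All other cell cycle lists together had 48 above and 36 below in polyribosomal RNA (median 0.02). In total RNA they had 28 above and 55 below (median -0.04). Of the cell type markers, 11 lay above and 28 below in polyribosomal RNA, and 9 above and 29 below in total RNA. A lean below 0 in total RNA is thus not particular to the 8 members. The 8 members were measured on the same arrays and are not separate observations. Most MCM genes had low polyribosomal minus total differences in the same KO lysate, and the part of that lysate in the lean was not tested. Mcm6 had the value furthest below 0 among the replication genes, -0.32 in polyribosomal RNA with an interval of -0.78 to 0.14 at the probe set used. It was -0.15 without KO lysate 5 and WT lysate 4 together, and -0.06 without number 5 in both genotypes. A second Mcm6 probe set gave -0.33 in polyribosomal RNA (adjusted p = 1) and -0.40 in total RNA, with a 95% interval of -0.59 to -0.20 and KO below WT under 6 of 6 numbers, and was not called (adjusted p = 0.389).

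**Figure D4:**
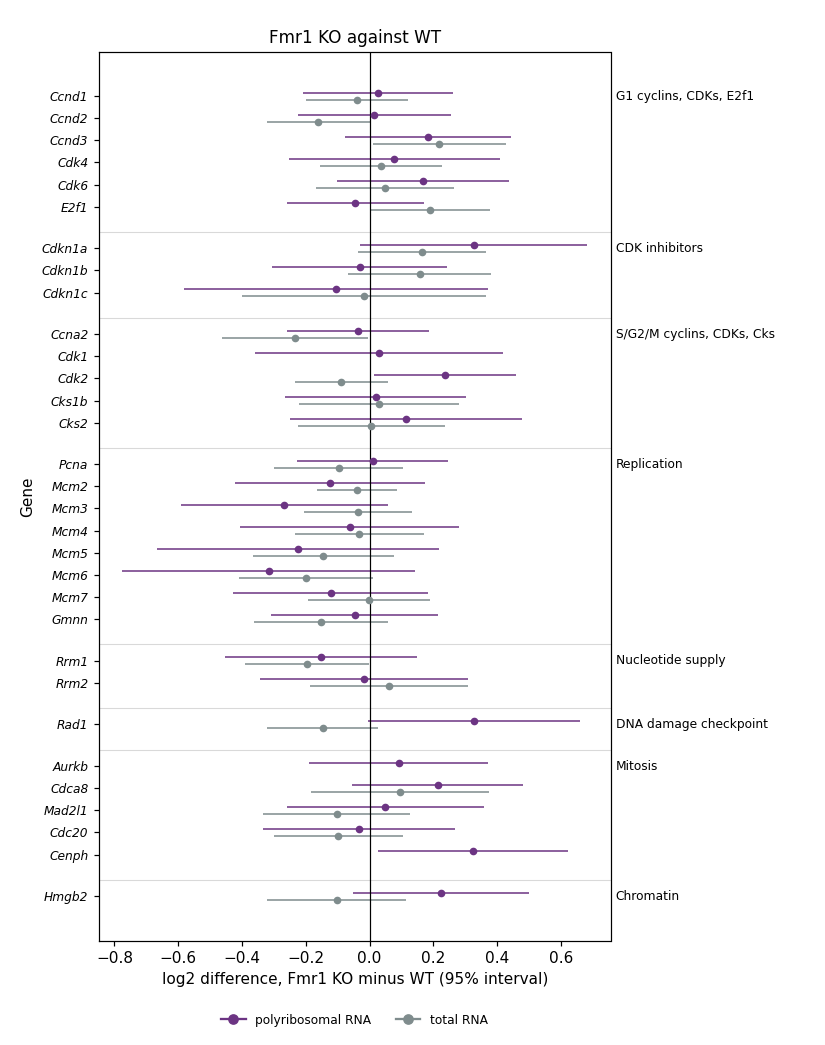
Difference between Fmr1 KO and WT cortex (x axis, log2, with the 95% interval of the limma fit) for the members tested in polyribosomal RNA (purple, 31 members) and total RNA (grey, 28 members), with 6 arrays a group. No member was called in either comparison.

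Whether the shift onto polyribosomes differed by genotype was tested on the 12 lysate differences, which share arrays with the comparisons above. The test called 0 of 31 members and 0% of 9955 genes, of which 233 had an unadjusted p under 0.05. Such a p was found for 3 members, Cenph, Rad1 and Cdk2. For Cenph (adjusted p = 0.999) no size is given, since its total RNA means are under the limit and it passed the filter through its polyribosomal arrays. The Rad1 differences ran from 1.06 to 1.39 in KO lysates and from 0.45 to 1.15 in WT lysates, a gap of 0.47 with a 95% interval of 0.20 to 0.75 (adjusted p = 0.999, 5 of 6 numbers). Cdk2 had a gap of 0.32 (adjusted p = 0.999, 5 of 6 numbers). That size is uncertain, since the Cdk2 total RNA means of 4.02 in KO and 4.11 in WT cortex lie at the limit of 4. None of the 3 passed the adjustment over all probe sets.

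Genes of the cell cycle outside the group were counted from lists of their own, to be read against the shares over all genes (38.7% higher and 28.2% lower in KO, 37.5% higher and 28.4% lower in WT cortex). These lists too were chosen with earlier results of these data known, so their counts are descriptive. Of 28 other replication genes tested, 19 were higher and 0 lower on polyribosomes in KO cortex, and 19 were higher and 1 lower (Orc2, an origin recognition subunit, at -0.24) in WT cortex. The highest were Rpa2, which coats single-stranded DNA (1.75 in KO and 1.43 in WT cortex), Rfc3, which loads Pcna (1.44 in KO and 1.04 in WT cortex), and the polymerase delta subunit Pold2 (0.99 in KO and 1.08 in WT cortex). Of 11 other G1 and S phase regulators, 3 were higher and 4 lower in each genotype, and nothing particular to lists this small is read from their counts. Rbl2, of the retinoblastoma family, was higher by 0.69 in KO and 0.70 in WT cortex, and Ccne1, an E-type cyclin, by 0.66 in KO and 0.56 in WT cortex. The other E-type cyclin, Ccne2, was lower in KO cortex, at -0.42 (adjusted p = 0.00146). E2f6, a repressor of the E2F family, was lower at -0.38 in KO and -0.49 in WT cortex.

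Other mitosis genes were mostly too dim, with 13 of 57 tested, of which 6 were higher and 3 lower in KO cortex, and 6 higher and 2 lower in WT cortex. Pttg1, which encodes securin, was higher by 1.28 in KO and 1.05 in WT cortex, whereas the condensin subunits Smc4 (-1.31 in KO and -1.48 in WT cortex) and Smc2 (-0.91 in KO and -0.96 in WT cortex) were lower. Among DNA damage checkpoint genes 2 of 10 were higher and 5 lower in KO cortex, and 1 of 11 was higher and 5 lower in WT cortex. Tipin, a subunit of the fork protection complex, was the lowest, at -1.67 in KO and -1.81 in WT cortex, followed by Ccng1, a p53 target, at -0.94 in KO and -1.18 in WT cortex. No gene of these lists was called between genotypes.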

How the data were processed

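RNA from polyribosomal fractions and from lysate of Fmr1 KO and WT cortex was measured on 24 Affymetrix arrays. The deposited values were made with GCRMA, per the submitters' processing notes; its version, and whether all arrays were normalized together, are not given in the sources used here. The deposited values were taken to be log2 because of their span and their similar array medians. The number of arrays limits the precision, and no batch or scan date was used.

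The annotation gave 1 symbol for 34945 probe sets, several for 932 and none for 9160. A probe set entered a test if 6 or more of the compared arrays reached a log2 value of 4. The test was two-sided, by eBayes after lmFit in limma (version 3.58.1, R version 4.3.3), with Benjamini-Hochberg adjustment over every probe set in it and a threshold of 0.05. Polyribosomal and total RNA were compared with the lysate as a block, genotypes without a block, and the genotype gap on 12 lysate differences. The code was tested on simulated data. The members and gene lists were chosen with earlier results of these data known. Members past the threshold in the same direction in 6 of 6 lysates are named, with array ranges for the 10 largest mean differences. Also named are members whose probe sets disagree in sign, the 3 smallest p-values between genotypes, and up to 3 genes per direction of other lists. Other members were added to account for the whole group.

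The study used littermate pairs, but the labels do not tie a replicate number to a pair. Same-numbered KO and WT arrays had residual correlations of 0.133 to 0.532 in total RNA, over 0.1 for 6 of 6 numbers. In polyribosomal RNA they were -0.137 to 0.625, over 0.1 for 4 of 6. Polyribosomal and total arrays of a genotype with the same number were taken to be 1 lysate. Their residual correlations were 0.156 to 0.474 in KO (over 0.1 for 6 of 6) and 0.0211 to 0.525 in WT cortex (over 0.1 for 4 of 6). Alternatives covered the filter, scaling, variance model, choice of probe set, block and each lysate left out. Plots used matplotlib (version 3.10.9) under Python 3.11.15.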

Additional observations from a re-analysis of the deposited data

Results flagged for a closer look

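Of 120 groups of 6 arrays (30 members in 4 groups), 4 held a single array far from the others by Dixon's criterion, and chance gives about 1 in 20. Mcm6, the helicase subunit, stood at 6.69 in the polyribosomal array of KO lysate 5, where the other 5 ran from 7.77 to 8.32. The total array of the same lysate was highest for the spindle checkpoint gene Mad2l1, at 6.20 against 5.61 to 5.80 in the others, and for Cks2, at 7.125 against 6.63 to 6.79. The kinetochore gene Cenph stood at 4.915 in the polyribosomal array of WT lysate 5, against 4.24 to 4.49 in the others.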

How the results depend on the processing

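Under all alternatives run, 17 to 28 members in KO and 18 to 30 in WT cortex were higher on polyribosomes, and 2 to 6 in KO and 2 to 5 in WT cortex were lower; how many were tested changed with the filter (21 at a minimum of 6, 43 with none). The count of lower members moved without a filter, to 6 in KO and 5 in WT cortex, through genes under the limit of 4. With each lysate left out in turn, 21 to 23 were higher and 3 lower in KO cortex, and 23 to 26 higher and 2 to 3 lower in WT cortex. Without the replicate block 24 were higher in KO and 25 in WT cortex. Calls of single members near the threshold changed for Rrm1, Ccnd3, Cdkn1b, E2f1, Mcm7 and Ccna2, and no called member changed sign; the cause was not tested. Between genotypes, and for the genotype gap, 0 members were called under any alternative run, with the replicate block and, chosen after seeing the data, without KO lysate 5 and WT lysate 4 included. The replicate block took the probe sets called in total RNA to 4, against 7 of 17850 without it. Signal over background limits the 13 dim members, for which values under 4 set no fold.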

Other observations

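Among complexes that act on chromosomes after replication, most genes of the cohesin list were lower on polyribosomes, while genes at large went in both directions. The list is small and was chosen with earlier results of these data known. Of all genes, 38.7% were higher and 28.2% lower in KO cortex, and 37.5% and 28.4% in WT cortex. All 9 genes of the cohesin list, which holds the ring that joins sister chromatids and its loader, were measured: 1 was higher and 8 lower in KO cortex, and 1 was higher and 7 lower in WT cortex. The loader Nipbl was lowest, at -1.47 ± 0.18 in KO and -1.32 ± 0.15 in WT cortex, followed by Stag2 (-0.99 in KO and -0.94 in WT cortex) and Smc3 (-0.96 in KO and -0.98 in WT cortex). Rad21, the subunit that separase cuts, was higher by 0.31 in KO and 0.27 in WT cortex.

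The 12 genes of the anaphase-promoting complex list, a ubiquitin ligase of many subunits, gave 5 higher and 5 lower in KO cortex, and 6 higher and 5 lower in WT cortex. All genes were higher in 38.7% and lower in 28.2% in KO cortex, and in 37.5% and 28.4% in WT cortex. Nothing particular to this list is read from its counts. Anapc11 was lower at -1.75 in KO and -1.76 in WT cortex, Anapc13 at -1.45 in KO and -1.48 in WT cortex, and Cdc26 at -0.96 in KO and -1.16 in WT cortex. The subunits Cdc16 (0.83 in KO and 0.55 in WT cortex) and Cdc23 (0.53 in KO and 0.51 in WT cortex) were higher.

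Radial glia and progenitor markers did not share one direction. Of 8 tested, 2 were higher and 4 lower in KO cortex, and 1 was higher and 4 lower in WT cortex. All genes were higher in 38.7% and lower in 28.2% in KO cortex, and in 37.5% and 28.4% in WT cortex. Nothing particular is read from a list this small. Sox2, a progenitor transcription factor, was higher by 0.38 in KO and 0.35 in WT cortex, and Ptprz1, a receptor phosphatase, was lower at -0.91 in KO and -0.97 in WT cortex.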
